A study of Mus musculus with 6 samples.

Results

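Purinergic genes of microglia are described here, written below as the 10 members: the ATP-gated channels P2rx4 and P2rx7, the nucleotide receptors P2ry6 and P2ry14, the adenosine receptors Adora1, Adora2a and Adora3, the ectonucleotidases Entpd1 and Nt5e, and the channel gene Panx1. They were chosen by symbol as the ATP and adenosine sensing genes of microglia other than the homeostatic markers P2ry12 and P2ry13, which appear only for comparison, and all 10 were found among the 26789 genes of the deposited table. The samples were microglia, the resident macrophages of the brain, from the rostral nucleus of the solitary tract (NST), the first brainstem relay of taste, at P15. In one group the dams had been fed a low sodium diet early in gestation (E3–E12 diet, 3 libraries), and in the other a control diet (controls, 3 libraries). By the study's methods, each library pooled littermates of 1 litter, and the cells were taken with magnetic beads against CD11b, whereas the deposited series text names laser microdissection, so the isolation is uncertain. The methods name C57Bl/6 as the control strain and mice of both sexes, with no transgene or deletion for these samples. The diet dams also drank distilled water until E12 and then went back to standard chow and tap water. The methods name an amplification kit and the labels a TruSeq library, so the library preparation is uncertain too.

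Cells release ATP and other nucleotides when they are active, stressed or damaged, and microglia read these nucleotides through P2X channels and P2Y receptors. On the cell surface ENTPD1 (CD39) removes phosphates from ATP and ADP to give AMP, and NT5E (CD73) turns AMP into adenosine, which acts on the adenosine receptors. Microglia use this system to extend processes toward sites of damage, to take up debris and to start inflammasome signaling.

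The values are normalized counts, in which the number of sequenced reads behind each value is not known. Values listed for a group are in the order of replicates 1, 2 and 3. Totals per library were between 9407141 and 17204618. All 10 microglial markers listed were above 0 in every library, and their summed level was between 99120 and 488187 normalized counts in controls and between 97516 and 305622 in E3–E12 diet mice. Within each diet, replicate 1 was the lowest, at 99120 and 97516. Control replicate 2 stood apart, with the most microglial marker signal and with 10640 genes listed at 0, against 3459 to 7135 in the other libraries. Markers of other cell types were also present. The oligodendrocyte lineage sum was between 3937 and 30716 in controls and between 4323 and 17041 in E3–E12 diet mice. The border macrophage sum was between 5035 and 19433 in controls and between 4719 and 8155 in E3–E12 diet mice. The mural and fibroblast sum was between 934 and 14366 in controls and between 5585 and 15522 in E3–E12 diet mice, and all 6 of its genes were above 0 in every library. The choroid plexus and ependyma sum was between 764 and 29896 in controls and between 1291 and 57565 in E3–E12 diet mice. In pooled cells of this kind, fewer cells of a type and less RNA per cell cannot be told apart.

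To compare levels between genes, normalized counts were divided by the exon length of each gene in kilobases (kb), and means ± SD over the 6 libraries are given. Entpd1 stood highest of the 10 members, at 1321 ± 393 normalized counts per kb, followed by P2ry6 at 920.4 ± 531 and P2rx7 at 843 ± 492. Of all genes tested, 98.4% had a lower mean per kb than Entpd1, 97.4% than P2ry6 and 97.2% than P2rx7. P2ry12 and P2ry13, the ADP receptors that mark homeostatic microglia, averaged above these, at 3636 ± 2734 and 3168 ± 1859 normalized counts per kb. In E3–E12 diet replicate 1, however, Entpd1 was above both, at 1600 against 1092 for P2ry12 and 1192 for P2ry13. Adora3 followed at 121 ± 89.5, P2rx4 at 95.01 ± 35.8 and Adora1 at 37.8 ± 14.6 normalized counts per kb. Panx1 had 12.6 ± 7.01 normalized counts per kb, and Adora2a, Nt5e and P2ry14 averaged under that, at 6.97, 1.90 and 1.40. Entpd1 was above P2ry6 in 5 of 6 libraries, P2ry6 above P2rx7 in 4 and Adora3 above P2rx4 in 3, so these neighbors in the order were not separated. Adora2a was above Nt5e, and Nt5e above P2ry14, in 5 of 6 libraries each, so these were not separated either. P2rx7 was above Adora3, P2rx4 above Adora1, Adora1 above Panx1, and Panx1 above Adora2a in all 6 libraries.

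**Figure D1:**
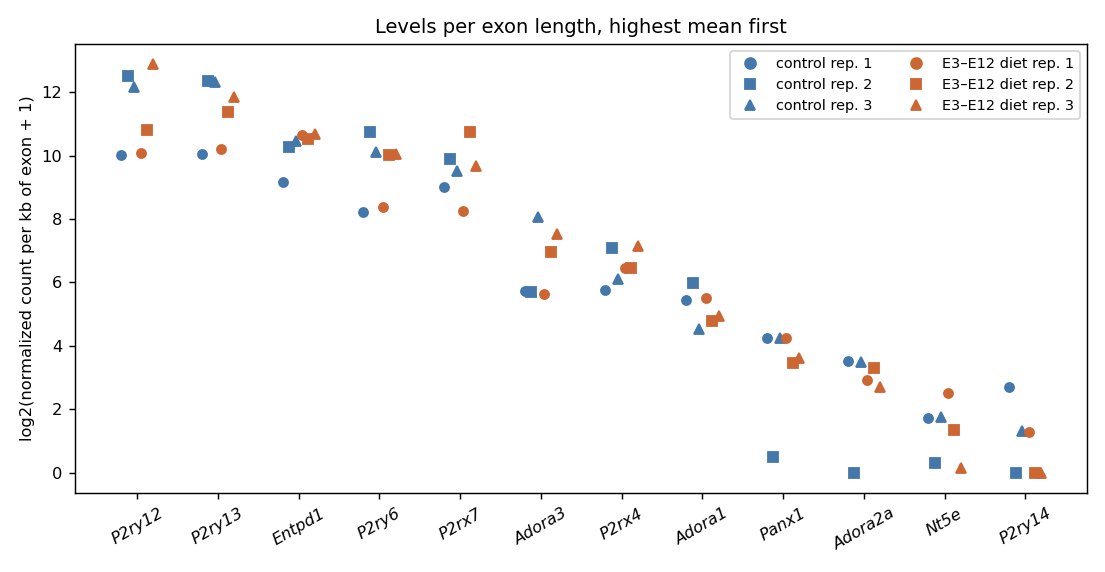
Level of each of the 10 members, and of P2ry12 and P2ry13, in each of the 6 libraries, as log2(normalized count per kb of exon + 1), ordered by the mean. Points are single libraries, blue for controls and orange for E3–E12 diet mice, with the shape giving the replicate number. Entpd1, P2ry6 and P2rx7 sit well above the other members in every library, and control replicate 2 is the lowest library for Panx1.

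Promoter windows were searched for a motif of a macrophage factor, and are shown for the 2 members that were highest in these cells and had a window and for P2ry13 beside them. The windows hold 300 bases around a transcript start, most of them upstream (RefSeq, GRCm38.p6), and 8 of the 10 members had at least 1 window, 14 in all. P2ry6 and Adora2a had none. The core of the PU.1 motif, GAGGAA, was searched on both strands, since PU.1 is the main ETS factor of macrophages and microglia. Of 32851 windows of this length over all genes, 28.3% held it. It was found in 8 of the 14 windows of the members, in both of P2rx7, all 4 of P2ry14, the window of Adora3 and 1 of 2 of Entpd1, and in none of Adora1, P2rx4, Panx1 and Nt5e. A pair of P2ry14 windows overlap and share 1 match. P2ry14, the lowest member, held the motif and P2rx4 did not, so its presence did not sort the members by level. The 2 windows of Entpd1, the first of P2rx7 and that of P2ry13 are printed 5′ to 3′, with the motif or its reverse complement TTCCTC in capitals.
Entpd1, chr19:40612116-40612415, plus strand: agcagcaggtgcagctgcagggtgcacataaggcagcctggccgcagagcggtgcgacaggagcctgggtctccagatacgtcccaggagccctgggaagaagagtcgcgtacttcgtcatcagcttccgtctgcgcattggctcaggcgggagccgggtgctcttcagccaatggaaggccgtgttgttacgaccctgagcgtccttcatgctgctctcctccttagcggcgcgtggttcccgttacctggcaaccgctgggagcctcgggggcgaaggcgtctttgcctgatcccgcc
Entpd1, chr19:40659520-40659819, plus strand: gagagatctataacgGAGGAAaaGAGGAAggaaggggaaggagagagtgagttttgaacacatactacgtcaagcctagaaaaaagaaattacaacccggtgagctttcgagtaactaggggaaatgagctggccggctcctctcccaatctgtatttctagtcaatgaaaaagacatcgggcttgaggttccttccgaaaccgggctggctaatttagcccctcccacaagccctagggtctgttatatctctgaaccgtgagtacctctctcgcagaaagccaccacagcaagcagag
P2rx7, chr5:122643677-122643976, plus strand: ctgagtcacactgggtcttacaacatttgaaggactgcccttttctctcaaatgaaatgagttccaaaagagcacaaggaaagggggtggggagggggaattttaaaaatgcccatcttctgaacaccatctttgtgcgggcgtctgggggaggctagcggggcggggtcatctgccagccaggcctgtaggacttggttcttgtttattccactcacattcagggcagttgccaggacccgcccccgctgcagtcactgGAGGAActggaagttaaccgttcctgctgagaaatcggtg
P2ry13, chr3:59210833-59211132, minus strand: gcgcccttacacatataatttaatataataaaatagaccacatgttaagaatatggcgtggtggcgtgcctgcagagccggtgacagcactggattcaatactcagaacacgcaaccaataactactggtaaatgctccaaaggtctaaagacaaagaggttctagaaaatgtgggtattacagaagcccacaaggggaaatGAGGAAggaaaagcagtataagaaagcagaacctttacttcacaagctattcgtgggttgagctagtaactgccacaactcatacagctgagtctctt
The downstream start of Entpd1 had 2 matches, the upstream start had 0, and the P2rx7 and P2ry13 windows had 1 each. The window of P2ry12, which is not printed, had 0. A match is a description of these letters only.

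The diets were compared for each gene with limma on log2(normalized count + 1), two-sided, over the 18007 genes averaging 10 normalized counts or more, with Benjamini-Hochberg adjustment and the study's threshold of 0.1. All 10 members passed the filter. None of them passed the threshold (0 of 10, adjusted p = 0.999 for each), and 0 had an unadjusted p under 0.05. Over all genes, 0% passed the adjusted threshold and 1.82% had an unadjusted p under 0.05. The study itself, using DESeq2, listed genes past its threshold in both directions, and no member is among those it printed. The 0% is for limma on the normalized counts and is not the study's own result. By log2 level, 6 members stood above the controls in E3–E12 diet mice and 4 below, with a median log2 fold change of 0.15, where the median over all genes tested was 0.087 and 54.4% of genes were higher. The groups did not overlap in 1 member, Entpd1, against 5.90% of all genes tested (2.99% with the E3–E12 diet above and 2.91% with it below), so a count of 1 in 10 is near the background. The median standard error of the members' log2 fold changes was 0.90, and 7 of the 10 had an absolute log2 fold change under 1. The other 3 were P2ry14, Adora2a and Panx1, each with 1 or more libraries at 0 or close to it.

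**Figure D2:**
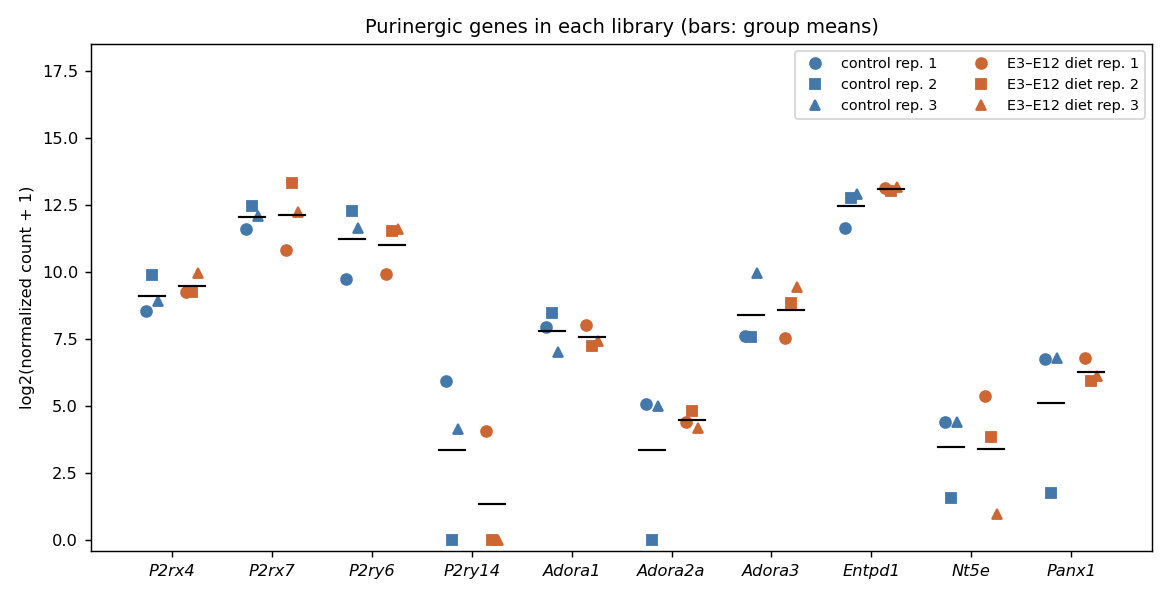
The 10 members in each library as log2(normalized count + 1), with controls in blue, E3–E12 diet mice in orange, the replicate number as the shape and a bar at each group mean. Only Entpd1 has every E3–E12 diet library above every control, between 8220.5 and 9159.6 against 3200.5 to 7762 normalized counts.

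The ectonucleotidases lay far apart in level. Entpd1 (ENSMUSG00000048120, 19:40612366-40741602 in GRCm38, plus strand), which starts the breakdown of extracellular ATP, had 3200.5, 6948 and 7762 normalized counts in the controls, against 8928, 8220.5 and 9159.6 in those of the E3–E12 diet. Every E3–E12 diet library was above every control, the controls were spread widely, and the E3–E12 diet libraries lay close together, at 8769 ± 489 against 5970.0 ± 2433 normalized counts (SD, n = 3 libraries each). The log2 fold change was 0.65 with a standard error of 0.60 and a 95% interval from -0.79 to 2.09 (adjusted p = 0.999 from limma). An exact permutation test, two-sided, gave p = 0.1, and no smaller p can be had from 3 libraries a group. For the other 9 members the same exact test gave p between 0.4 and 1.0. The summed astrocyte markers did not overlap either, at 1395 to 1527 in controls and 1941 to 4042 in E3–E12 diet mice, but of its 6 markers only Aldoc did not overlap on its own, Gfap and Aldh1l1 were listed at 0 in control replicate 2, and Slc1a3 made up most of the sum there (1420 of 1527). The summed endothelial markers overlapped, at 4538 to 12221 in controls and 8051 to 13535 in E3–E12 diet mice. The part of astrocytes or endothelial cells in the Entpd1 values was not tested. Control replicate 1 set much of the difference, and without it the log2 fold change was 0.25. The groups overlapped once libraries were scaled to equal totals, quantile normalized or set against the microglial markers, with log2 fold changes of 0.77, 0.89 and 0.84.
Nt5e (ENSMUSG00000032420, 9:88327197-88372092, plus strand), which makes adenosine from AMP, was near the bottom of the genes tested, with a mean per kb above that of 0.431% of them. It had 20.1, 1.99 and 20.4 normalized counts in the controls, against 40.9, 13.5 and 0.947 in those of the E3–E12 diet. The groups overlapped fully, and the spread within each diet was wider than the difference between them. Its log2 fold change was -0.066 with a 95% interval from -3.29 to 3.15, and its sign turned when control replicate 1, control replicate 3 or E3–E12 diet replicate 3 was left out, with equal totals, with a pseudocount of 10 and against the markers. The library with the highest Nt5e, E3–E12 diet replicate 1, also had the highest mural and fibroblast sum (15522) and choroid plexus and ependyma sum (57565), and control replicate 2, with 1.99, had the lowest of both (934 and 764). All 5 choroid plexus and ependyma markers were highest in E3–E12 diet replicate 1, but of the 6 mural and fibroblast markers only Col1a1 was. In control replicate 2, Pdgfrb, Rgs5, Acta2, Dcn, Folr1, Enpp2 and Foxj1 were lowest, and Col1a1, Lum, Ttr and Kl were not. E3–E12 diet replicate 3 had the least Nt5e with sums of 7990.2 and 1291. The part of those cells in the Nt5e values was not tested. Per kb, Entpd1 exceeded Nt5e by between 245-fold in control replicate 1 and 14912-fold in E3–E12 diet replicate 3.

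The P2X channels are neighbors on chromosome 5. P2rx7 (ENSMUSG00000029468, 5:122643911-122691432, plus strand), the low-affinity ATP channel upstream of the NLRP3 inflammasome, ends 16.1 kb before P2rx4 (ENSMUSG00000029470, 5:122707544-122729738, plus strand), a high-affinity ATP channel. P2rx7 had 3086, 5704 and 4393 normalized counts in the controls, against 1798, 10323 and 4877 in the E3–E12 diet libraries. E3–E12 diet mice held both the lowest and the highest library, so the groups overlapped over the whole control range. The log2 fold change was 0.076 with a standard error of 0.79 and a 95% interval from -1.81 to 1.97, and it was -0.52 without E3–E12 diet replicate 2 and -0.16 without control replicate 1.
P2rx4 had 372, 943 and 477 normalized counts in the controls, against 608, 605 and 998 in the E3–E12 diet libraries. All E3–E12 diet libraries were above control replicates 1 and 3, and control replicate 2 was above all but one of them. The log2 fold change of P2rx4 was 0.38 with a 95% interval from -1.12 to 1.88, and it kept its sign in every alternative run, between 0.094 and 0.76. Per kb, P2rx7 exceeded P2rx4 in all 6 libraries, by 9.75, 7.12 and 10.8 times in the controls. With the E3–E12 diet the ratio was 3.48, 20.1 and 5.75, a range that holds all 3 control values.

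Of the P2Y receptors, P2ry6 (ENSMUSG00000048779, 7:100937630-100974649, minus strand), the UDP receptor linked to phagocytosis by microglia, had 851, 4910.4 and 3184 normalized counts in the controls, against 967, 2956 and 3075 in those of the E3–E12 diet. The replicate 1 library was the lowest in both diets, and the remaining libraries lay between 2956 and 4910.4. Its log2 fold change was -0.20 with a standard error of 0.89 and a 95% interval from -2.33 to 1.93, and its sign turned when control replicate 2, control replicate 3 or E3–E12 diet replicate 1 was left out.
P2ry14 (ENSMUSG00000036381, 3:59113855-59153618, minus strand), a receptor for UDP-glucose, lies in the same stretch of chromosome 3 as P2ry13 and P2ry12, and all of them overlap the gene Med12l on the opposite strand without sharing more than 0.353% of their exon bases with it. It had 60.3, 0 and 16.7 normalized counts in the controls, against 15.8, 0 and 0 in the E3–E12 diet libraries. It was thus listed at 0 in 3 of 6 libraries, 1 control and 2 E3–E12 diet. Its log2 fold change of -2.00 had a standard error of 1.80 and a 95% interval from -6.30 to 2.30, and it ranged from -3.68 without control replicate 2 to -0.72 without control replicate 1. Its unadjusted p in the main limma fit was 0.30. After quantile normalization the log2 fold change was -2.69 with an unadjusted p of 0.034 from limma (adjusted p = 0.9998). In that setting 491 of the 18007 genes had an unadjusted p under 0.05. P2ry14 passed the filter on low values only through the controls, averaging 25.7 against 5.27, and control replicate 1 made up most of that.

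The adenosine receptors were low to moderate. Adora3 (ENSMUSG00000000562, 3:105870858-105908926, plus strand), the A3 receptor, which couples to Gi proteins, had 193, 192 and 994 normalized counts in the controls, against 183, 455 and 689 in the E3–E12 diet libraries. A single control library was above all others, and the remaining controls lay with the lowest E3–E12 diet library. The log2 fold change was 0.21 with a 95% interval from -1.96 to 2.39, and it fell below 0 without control replicate 1, control replicate 2 or E3–E12 diet replicate 3. Tmigd3, a gene on the same strand, shares 20.9% of the exon bases of Adora3, so its counts are uncertain.
Adora1 (ENSMUSG00000042429, 1:134199223-134235431, minus strand), the A1 receptor, best known from neurons, had 245, 356 and 129 normalized counts in the controls, against 258, 152 and 172 in those of the E3–E12 diet. The groups overlapped, with both extremes among the controls. Its log2 fold change was -0.25 with a 95% interval from -1.77 to 1.28, and it was 0.088 without control replicate 2. Control replicate 2 had the highest Adora1 and the lowest sum of 6 neuronal markers, at 227 against 803 to 1654 in the other libraries. Syt1, Rbfox3, Stmn2 and Snap25 were lowest there, the first 3 listed at 0, whereas Nefl, at 131, was above its level in 3 other libraries and Tubb3, at 3.96, above that in 2. The part of neurons in the Adora1 values was not tested. Mybph, on the opposite strand, covers 20.1% of the exon bases of Adora1, and whether the counting used strand is not given in the sources used here.
Adora2a (ENSMUSG00000020178, 10:75316877-75334784, plus strand), an adenosine receptor that couples to Gs proteins, had 32.5, 0 and 31.2 normalized counts in the controls, against 20.4, 26.9 and 17.01 in the E3–E12 diet libraries. Apart from the control library listed at 0, the controls were above all E3–E12 diet libraries. Its log2 fold change of 1.11 (95% interval -2.26 to 4.47) thus came from that library, and it was -0.57 without it.

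Panx1 (ENSMUSG00000031934, 9:15002128-15045478, minus strand), which encodes a membrane channel through which ATP leaves cells, had 107, 2.43 and 109.7 normalized counts in the controls, against 109, 60.8 and 68.0 in those of the E3–E12 diet. All but control replicate 2 lay between 60.8 and 109.7. The log2 fold change was 1.17 with a standard error of 1.41 (95% interval -2.19 to 4.53), and it was -0.50 without control replicate 2. Of the 6 endothelial markers, Flt1, Cdh5, Vwf and Ly6c1 were lowest in that library and Cldn5 and Pecam1 highest. The part of other cell types in the Panx1 values was not tested.

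**Figure D3:**
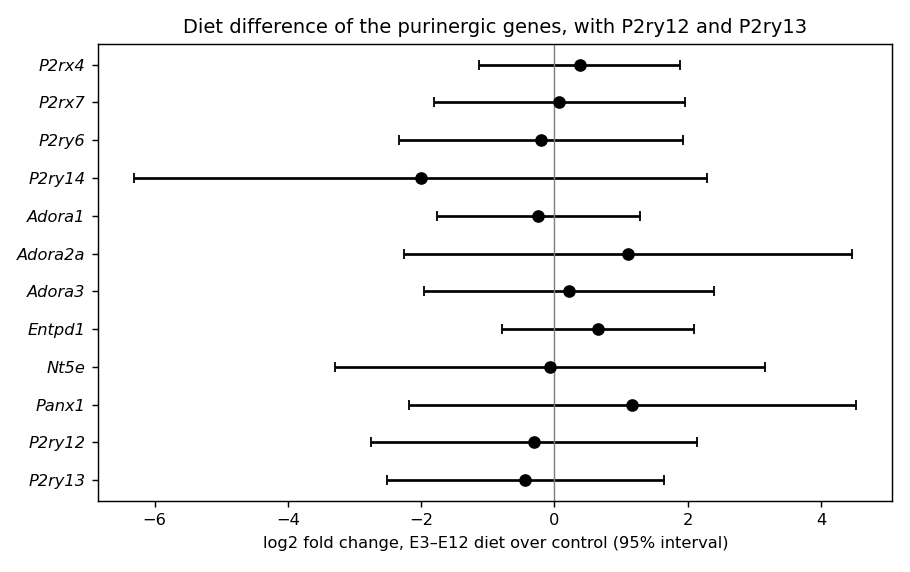
Log2 fold change of E3–E12 diet mice over controls for the 10 members, P2ry12 and P2ry13, with 95% intervals from limma. All 12 intervals include 0, the narrowest being those of P2rx4, Adora1 and Entpd1 and the widest that of P2ry14.

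The mean log2 level of 9 microglial markers (the list without P2ry12) was taken in each library as a measure of microglial signal. It lay 1.16 and 1.14 below its overall mean in control replicate 1 and E3–E12 diet replicate 1 and 1.09 above it in control replicate 2. The border macrophage sum was also lowest in replicate 1 of each diet, at 5035 and 4719. It was highest in control replicate 2, at 19433, although its marker Pf4 was highest in control replicate 3. Microglia and border macrophages therefore cannot be told apart by this marker level. P2ry6 tracked the marker level closely. Its SD over the 6 libraries was 1.03 on the log2 scale and 0.182 after the marker level was subtracted, a smaller remaining spread than that of any of the 9 markers (0.254 to 0.535), each of which is itself part of that mean. Only 11 of the 18007 genes tested, P2ry6 included, had a remaining spread as small (0.0611%), and among the 2289 genes averaging 1000 normalized counts or more, 10 did (0.437%). This comparison was added after the values had been seen. Subtraction reduced the spread in 3 of the 10 members and in 17.2% of all genes. It fell from 0.85 to 0.69 for P2rx7 and from 1.07 to 1.04 for Adora3, while for Entpd1 it rose from 0.57 to 0.84 and for P2rx4 from 0.55 to 0.67. P2ry13 and P2ry12 fell from 1.02 to 0.31 and from 1.26 to 0.56. Entpd1 was thus as high in E3–E12 diet replicate 1, where microglial markers were low, as in the other E3–E12 diet libraries. P2rx7 stood 1.24 above its mean in E3–E12 diet replicate 2, where the markers were 0.20 above theirs.

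**Figure D4:**
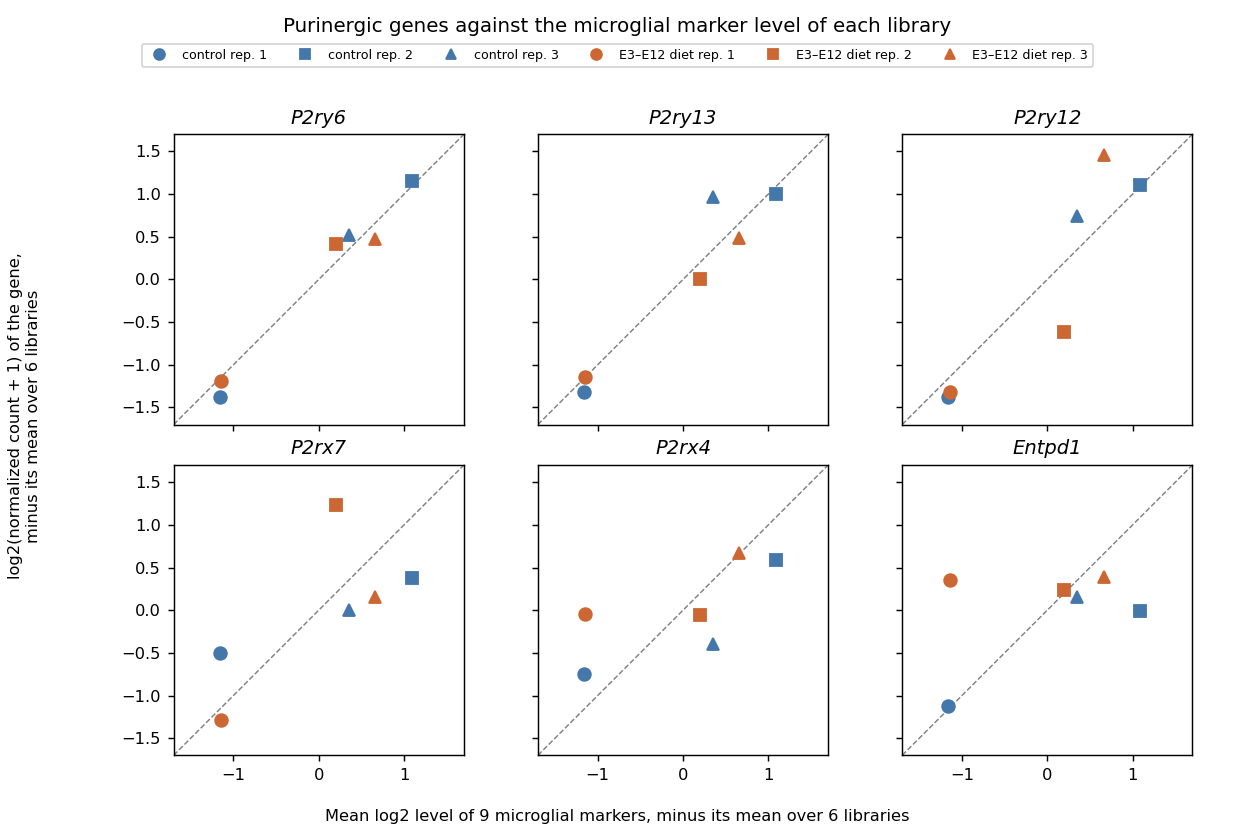
Each panel plots 1 gene against the mean log2 level of 9 microglial markers, both minus their means over the 6 libraries, with 1 point per library, controls in blue, E3–E12 diet mice in orange and a dashed line where both deviate equally. P2ry6 lies along the line with a remaining SD of 0.182, whereas Entpd1 (0.84) and P2rx4 (0.67) do not.

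The other genes of the system were taken as a list of 51, of which 48 were in the table and 44 passed the filter on low values. None of the 44 passed the adjusted threshold (0 genes by limma) and 0 had an unadjusted p under 0.05. By log2 level, 25 rated above the controls in E3–E12 diet mice and 19 below, with a median log2 fold change of 0.074. P2ry12 had 2655, 14924 and 11569 normalized counts in the controls, against 2781, 4519 and 19102 in the E3–E12 diet libraries, with a log2 fold change of -0.31 and a standard error of 1.02. P2ry13 had 2673, 13321 and 13050.1 in the controls, against 3013, 6693 and 9296 in the E3–E12 diet libraries, with a log2 fold change of -0.44 and a standard error of 0.87. Both were lowest in the replicate 1 libraries, as P2ry6 was.
Among the ecto-enzymes of this list all 7 tested had a positive log2 fold change, from 0.034 to 2.32, where 54.4% of all genes were higher. Each had overlapping groups. The members Entpd1 and Nt5e are not among the 7, and had log2 fold changes of 0.65 and -0.066. Control replicate 2 was the lowest library for 5 of the 7, and without it 3 of the 7 had a positive log2 fold change, where 49.6% of all genes did. Their highest level was that of Enpp2, which makes lysophosphatidic acid and is also a choroid plexus marker, at 7223, 206 and 11325 normalized counts in the controls, against 17942, 1394 and 724 in the E3–E12 diet libraries. It is part of the choroid plexus and ependyma sum, at 1394 of 1483 in E3–E12 diet replicate 2, so its likeness to that sum is partly fixed in advance. The other markers of the sum were, like Enpp2, highest in E3–E12 diet replicate 1. Away from that library they differed from Enpp2. Ttr was lowest in E3–E12 diet replicate 2, at 3.37, and Kl was 448 in control replicate 2 against 109 in control replicate 1. Of the 4 intracellular diphosphatases, Entpd7 was the 1 gene of the whole list whose groups did not overlap. It had 514, 666 and 518 normalized counts in the controls, against 399.6, 487 and 464 in the E3–E12 diet libraries, lower in each E3–E12 diet library (log2 fold change -0.32, standard error 0.53). A count of 1 in 44 is below the 5.90% of all genes.
The nucleoside transporter with the highest level was Slc29a3, the lysosomal equilibrative transporter, at 6305, 27076 and 14095 normalized counts in the controls, against 7451, 14074 and 19134 in the E3–E12 diet libraries. It was lowest in the replicate 1 library of each diet, and its log2 fold change was -0.087 with a standard error of 0.76. For purine metabolism, 4 of 6 genes were higher, led in level by Ada, adenosine deaminase, at 475, 292 and 264 normalized counts in the controls, against 203, 601 and 692 in the E3–E12 diet libraries. Ada had a log2 fold change of 0.40 (standard error 0.70). For ATP release, 2 of 5 were higher. The volume-regulated anion channel subunit Lrrc8a led in level and had a log2 fold change of -0.083 (standard error 0.61). Of the P2X channels outside the members, P2rx1 led in level and had a log2 fold change of 0 to 2 decimals (standard error 0.61).
Downstream of P2rx7, 4 of 7 inflammasome and output genes were higher, with log2 fold changes from -0.35 to 0.48. Nlrp3, the inflammasome sensor, had 1370.2, 1361 and 1063 normalized counts in the controls, against 782, 1409 and 2884 in the E3–E12 diet libraries (log2 fold change 0.23, standard error 0.67). The groups overlapped, and the E3–E12 diet libraries spread beyond the controls at both ends. The single adenosine receptor outside the members, Adora2b, had 9.28, 0 and 7.02 normalized counts in the controls, against 29.4, 16.8 and 2.83 in the E3–E12 diet libraries.

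**Figure D5:**
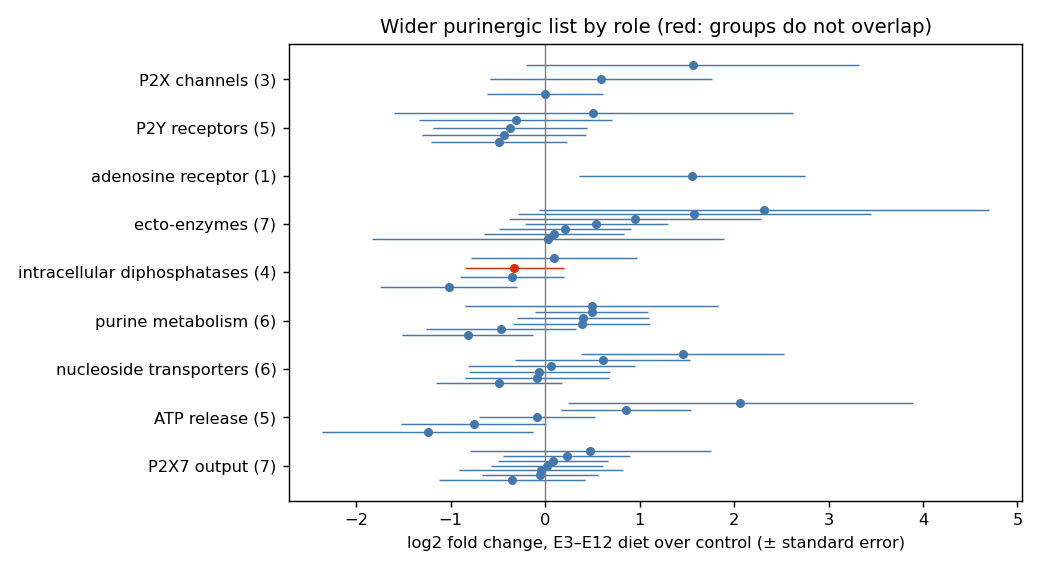
Log2 fold changes of the 44 tested genes of the wider list by role, with the number of genes in parentheses and standard errors as bars, E3–E12 diet mice over controls. The red point is Entpd7 at -0.32, and the points lie on both sides of 0 in most roles, with all 7 ecto-enzymes at or above 0.034 (3 of 7 above 0 without control replicate 2).

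The genes whose profile over the 6 libraries was most like that of Entpd1, the member with the highest level, were Chmp6, Minos1 and Tbcb. The measure was the root mean square difference of centered log2 levels, which was 0.11, 0.158 and 0.173. Chmp6 had 37.2, 80.8 and 84.2 normalized counts in the controls, against 119, 109.7 and 118 in those of the E3–E12 diet. These are the closest of 18007 genes over 6 libraries, and the likeness is a description only.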

How the data were processed

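RNA of P15 rostral NST microglia was sequenced from 3 control and 3 E3–E12 diet libraries. The authors deposited normalized counts per gene, a signal without whole-number counts, which the name of the table links to surrogate variables. How that adjustment was made is not given in the sources used here. The study's adjusted p threshold of 0.1 was kept. The submitters' processing notes name FastQC, STAR, featureCounts and DESeq2 and the build GRCm38, and the annotation release is not given in the sources used here. The low values were not whole multiples of 1 step, so the depth behind each value is unknown and no count test was run. Of 26789 identifiers, 26507 were matched to a symbol. With R 4.3.3, limma 3.58.1 (eBayes without a mean-variance trend) was fitted to log2(normalized count + 1) for the 18007 genes averaging 10 or more, two-sided, with Benjamini-Hochberg adjustment over all of them, and it was tested on simulated data. Exact permutation tests used scipy 1.17.1. P-values measure only the spread between these libraries. Exon lengths are of merged exons in GENCODE M21 (GRCm38). Named were the 10 members, P2ry12 and P2ry13, wider-list genes past the threshold, without overlap between groups or highest in their role, and the 3 genes most like the highest member. Alternatives were other pseudocounts, filters, scalings, a replicate block and leaving out libraries. The members and lists were chosen with earlier results of these data known.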

Additional observations from a re-analysis of the deposited data

How the results depend on the processing

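In every alternative run, 0 members and 0 genes over the whole table passed the adjusted threshold in limma. An unadjusted p under 0.05 was met by 327 genes, and by 491 after quantile normalization, 105 against the microglial markers and 276 to 551 when 1 library was left out. The 1 member without overlap between groups became 0 after quantile normalization, with equal totals and against the markers, 2 without replicate 1 of both diets and 1 to 4 when 1 library was left out. Over all genes, the share without overlap was 6.85%, 5.83%, 1.80%, 27.8% and 12.6% to 17.8% in those settings. The count of 4 was without control replicate 2 (P2rx4, P2ry14, Adora2a and Entpd1, with 14.4% of all genes), and the count of 2 without control replicate 1 (P2ry6 and Entpd1, with 17.8%). The members' median log2 fold change of 0.15 ranged from -0.047 to 0.57 when 1 library was left out. The single-gene ranges on leaving out 1 library, which cross 0, were -0.52 to 0.74 for P2rx7, -0.94 to 0.35 for P2ry6, -0.64 to 0.088 for Adora1, -0.57 to 1.96 for Adora2a, -0.20 to 1.0 for Adora3, -1.06 to 1.15 for Nt5e, -0.50 to 2.01 for Panx1, -1.12 to 0.27 for P2ry12 and -1.20 to 0.026 for P2ry13. The range for P2ry14 was -3.68 to -0.72, for P2rx4 0.094 to 0.76 and for Entpd1 0.25 to 0.89. Nt5e was also at 0.083 with a pseudocount of 10, 0.039 with equal totals and 0.12 against the markers. The cause of these changes was not tested. With the replicate number as a block, 0 genes passed and 468 were below 0.05 without adjustment. Libraries with the same number had residual correlations of 0.26, 0.035 and 0.14 across genes, and 5 of 6 libraries correlated best with their own number. The residuals were centered within each diet, so the 6 matches are not independent and the count is a description only. The main fit was planned without pairs, and the labels do not say whether libraries with the same number belong together. The ecto-enzymes of the wider list with a positive log2 fold change numbered 3 to 7 of 7 over the alternatives that tested 7, fewest without control replicate 2. The marker comparison, the fits without replicate 1 of both diets and a mean-variance trend in limma (268 genes below 0.05 without adjustment) were chosen after seeing the data. Scaling to equal totals moved the median log2 fold change of all genes from 0.087 to 0.20. The unknown read depth limits what can be said of Nt5e, P2ry14 and Adora2a.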
